A study of Zea mays with 9 samples.

Results

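In root apices of the maize inbred line B73, 32 nuclear genes were close to silent without nitrogen and were on after 24 h with nitrate. They were chosen from the deposited expression values by a rule: an identifier of the Zm00001d series, a level below 0.2 without nitrogen (0 allowed), a level of at least 1.5 with nitrate, and a level with nitrate plus the scavenger cPTIO of at most 2 times that with nitrate alone. Of the 43484 Zm00001d genes in the table, 3 identifiers were left out by the rule, and 32 of the others met it. All levels are RPKM, reads scaled to transcript length and to a normalized library size. For a very short gene a high RPKM can stand for very few reads. The values that chose the genes are a description of them and no test of nitrate.

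The samples were primary root apices of B73 seedlings, germinated for 3 days and treated for 24 h. They fell into 3 groups: +NO3- + cPTIO (1 mM nitrate with 1 mM cPTIO), +NO3- (1 mM nitrate) and −N (a nutrient solution with no nitrogen), with 3 libraries labelled for each and 10 to 15 plants pooled per library according to the series notes. The libraries of +NO3- and −N are labelled as re-analyzed, and the study had discussed them in earlier work, whereas those with cPTIO carry no such label. Whether all groups were sequenced together is not given in the sources used here. The part of this in the differences between +NO3- + cPTIO and the other groups was not tested. All seedlings, those later given nitrate included, had first spent a day in the solution without nitrogen, and the pooled values with cPTIO rest on fewer libraries than the others, because the authors did not keep all of them after quality filtering. The deposited table gives 1 pooled RPKM per gene and group, so none of the values below has an SD or a replicate check, and no p-value can be given. The depth of the libraries is not part of the table, and the range that the study gives for it was not used here. A single dose and a single time were sampled, and cPTIO without nitrate was not among the groups.

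Nitrate is both a nutrient and a signal for plant roots. In Arabidopsis, nitrate is sensed within minutes, and NIN-like transcription factors then switch on genes of nitrate uptake and reduction together with regulators of growth. Nitric oxide (NO) can arise from nitrite through nitrate reductase, and in maize roots it is formed soon after nitrate is given. cPTIO reacts with NO and removes it. The study says that this scavenging seems to weaken with time and is not always complete. It also cites earlier work in which cPTIO lowered NO in the apex of the maize primary root. A nitrate response that is lost with cPTIO thus differs from one that is kept in the presence of the scavenger, but a kept one can still involve NO that was left. A gene that starts from near silence is a favourable case for such a comparison, since its level with cPTIO shows directly how much of the onset is left. It is also a demanding one, because a low level rests on few reads.

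The labelled tissue was checked on genes that the study names. The root cap-specific protein (Zm00001d045420) had an RPKM of 23.0 in +NO3- + cPTIO, 6.04 in +NO3- and 44.7 in −N, bearskin 2 (Zm00001d003583), a regulator of root cap maturation in Arabidopsis, had 1.19, 0.207 and 1.77 in the same order of groups, and roothairless6 (Zm00001d030121) had 0.170, 2.39 and 7.90. All were above 0 in each group, although roothairless6 with cPTIO was below 0.2. All were lower in +NO3- than in −N. The study places them among the genes lowered by nitrate in these same data, so that direction is no separate check. In bulk tissue, fewer cells of a type and less RNA per cell cannot be told apart, and the part of such shifts in the results on the members was not tested. The reference gene of the study's qRT-PCR, Zm00001d018359, had 200.1 in +NO3- + cPTIO, 230.4 in +NO3- and 229 in −N. The table names no member by symbol, and none of the entries of the maize RefSeq table at hand (assembly Zm-B73-REFERENCE-NAM-5.0) carried a Zm00001d identifier, so no function is given here to any member and no sequence is printed. Coordinates and locus lengths are those of the table, on AGPv4.

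With cPTIO most of the onset was gone. Of the 32 genes, 17 were below 0.2 in +NO3- + cPTIO, which is the limit the rule sets for −N, and are called silent again. This name, like lost and kept, compares levels in separate seedlings and describes no course in time. Of these 17, 9 have a locus interval that is listed for a second gene and 3 have a locus of under 100 bp. A further 8 were at 0.2 or above and kept under 50% of the rise, and 7 kept at least 50% of it. The rise that was kept is the level in +NO3- + cPTIO minus that in −N, as a percentage of the level in +NO3- minus that in −N. Its median over the 32 genes was 0%, with quartiles of 0% and 35.9% and a range from −2.51% to 187%. Summed over all members, the RPKM was 42.7 in +NO3- + cPTIO, 196.7 in +NO3- and 1.48 in −N, and 20.6 of the 42.7 came from a single gene, Zm00001d039168.

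**Figure D1:**
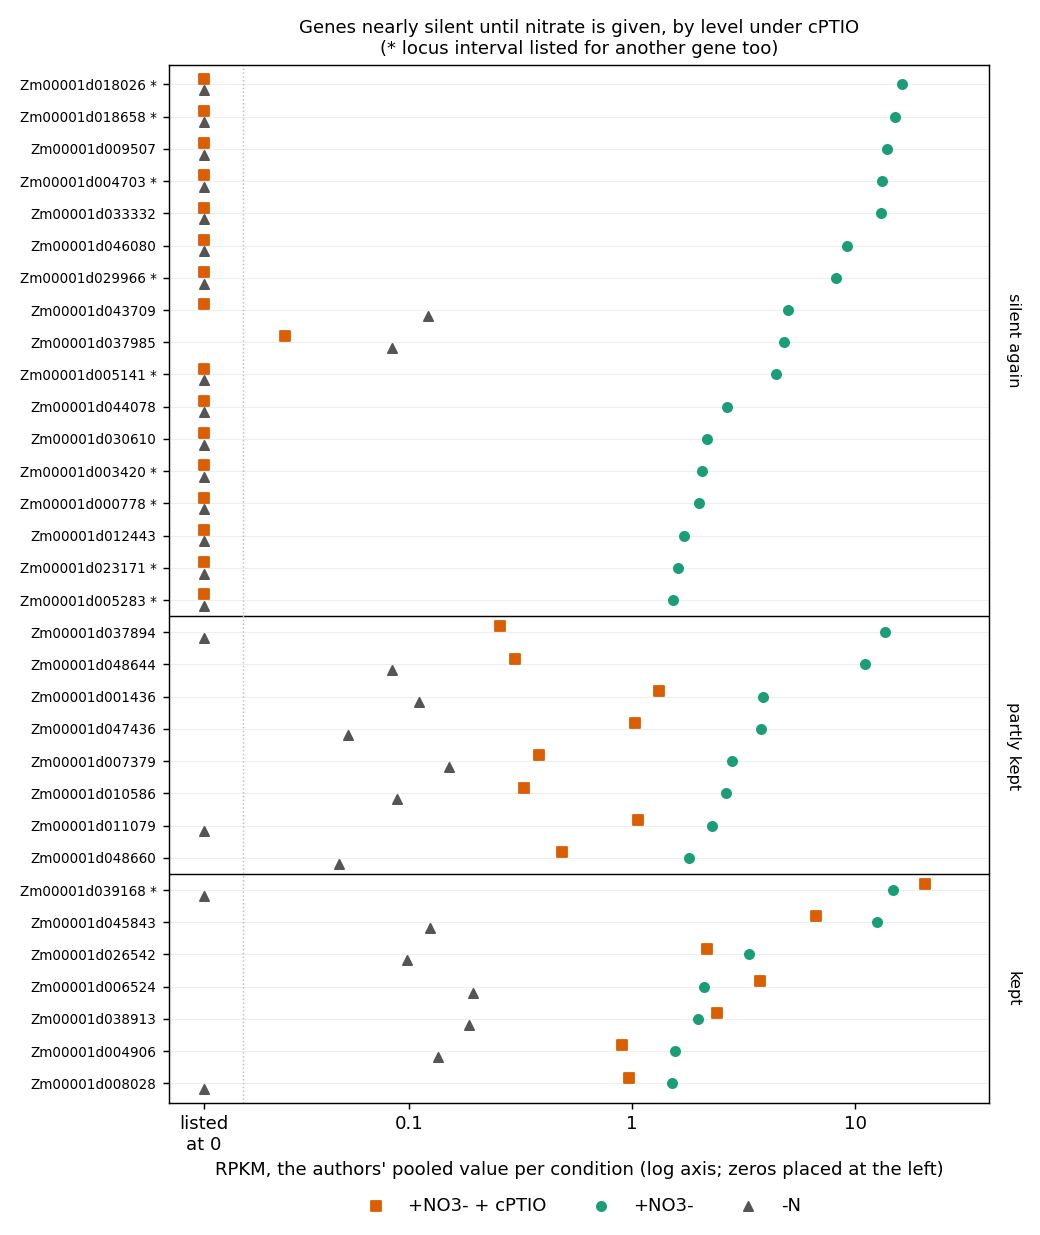
RPKM of each of the 32 genes (rows) in +NO3- + cPTIO (squares), +NO3- (circles) and −N (triangles) on a log axis, with values listed at 0 placed at the left edge and an asterisk for genes whose locus interval is also listed for another gene. The 17 genes of the upper block lie below 0.2 with cPTIO, the 8 of the middle block lie between the −N and +NO3- values, and in the lower block 3 of the 7 squares lie to the right of the circles.

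Such a loss was rare among the genes of the table at large. In +NO3-, 19263 Zm00001d genes reached 1.5 RPKM, and 76 (0.395%) of them were below 0.2 in +NO3- + cPTIO. The 17 members are part of these. The 19263 genes were not matched to the members in level or in kind of locus. The median in +NO3- was 3.57 over the members, and from a low level a smaller fall reaches 0.2. A level under 50% of that in +NO3- was found for 25 of the 32 members and for 11.7% of the 19263 genes. The median level with cPTIO was 94.4% of that with nitrate alone over the 19263 genes, and the median log2 ratio of +NO3- + cPTIO to +NO3-, with 0.1 added to each RPKM, was −0.08. For the members this median was −4.29, a value set largely by the 0.1 that was added, since 16 of them are listed at 0 with cPTIO. Higher with cPTIO than with nitrate alone were 3 of the 32 members, against 43.6% of the 19263 genes. A level of over 2 times that in +NO3- was shut out by the rule and was found for 4.28% of the 19263 genes. The comparison of nitrate with −N and that of cPTIO with nitrate share the +NO3- value, on which the members were chosen, so the loss and the onset are not independent measurements.

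A closer comparison is with genes that also rose with nitrate but from a higher base. Among the 738 genes over 2-fold higher in +NO3- than in −N with at least 0.2 in −N and 1.5 in +NO3-, the level with cPTIO was under 50% of that in +NO3- for 46.5%. From a base of 0.2 or more, a fall below 50% of the +NO3- level takes a larger share of the rise than from near 0. On the share of the rise itself, 292 (39.6%) of the 738 genes kept at least 50%, as did 7 of the 32 members. The median rise kept of the 738 genes was 27.2%, with quartiles of −11.7% and 103%, and 7 of them are listed at 0 with cPTIO. In all, 4.00% of the 19263 genes were over 2-fold higher in +NO3- than in −N, and 0.171% were below 0.2 in −N, a count of 33 genes before the limit on cPTIO removed 1. These figures are given as descriptions, because both sets were chosen on the +NO3- value that enters the ratio. The 738 genes carry no upper limit on the level with cPTIO. Their median locus length was 1228 bp, and they were not sorted by kind of locus. Of the 12 members with an own locus of 350 bp or more, 8 were under 50% of +NO3-. The median rise kept of these 12 was 17.2%, with quartiles of 1.92% and 53.4%.

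**Figure D2:**
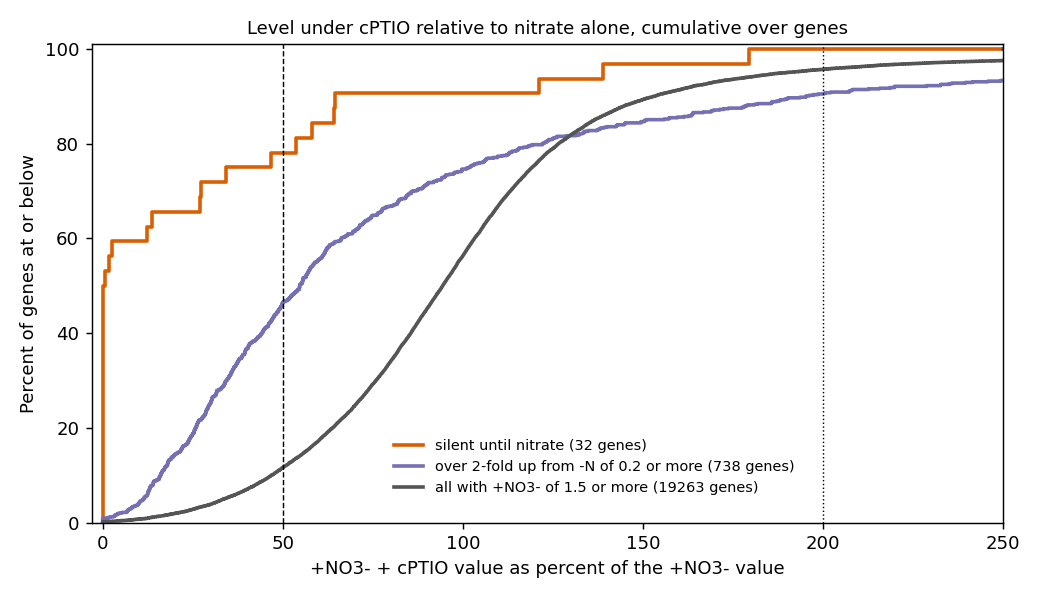
Percentage of genes (vertical axis) whose level in +NO3- + cPTIO is at or below a given percentage of their level in +NO3- (horizontal axis), for the 32 members, the 738 genes that rose over 2-fold from a base of 0.2 or more, and the whole set of 19263 genes that reached 1.5 RPKM in +NO3-. The curve of the members starts with 16 of 32 genes at 0, of which 9 have a shared interval and 3 a locus of under 100 bp. At the dashed line of 50% it stands at 25 genes, above 46.5% and 11.7% for the other sets. The axis is a share of the +NO3- level and not of the rise. The dotted line marks the limit of 2 times in the rule.

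The members differed in how their loci are listed, and the loss under cPTIO moved with this. For 10 members the table gives the same locus interval to another gene, which holds for 10.0% of the 19263 genes and for 9.67% of all Zm00001d genes. Another 3 have a locus of their own of under 100 bp, 7 one of 100 bp to under 350 bp, and 12 one of 350 bp or more. Silent again were 9 of 10, 3 of 3, 3 of 7 and 2 of 12 genes in these sets. The median rise kept was 0% in the shared loci, 0% in the shortest ones, 32.3% from 100 bp to under 350 bp and 17.2% at 350 bp or more. Locus length and sharing move with the loss in this way, and their part in it was not tested.

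**Figure D3:**
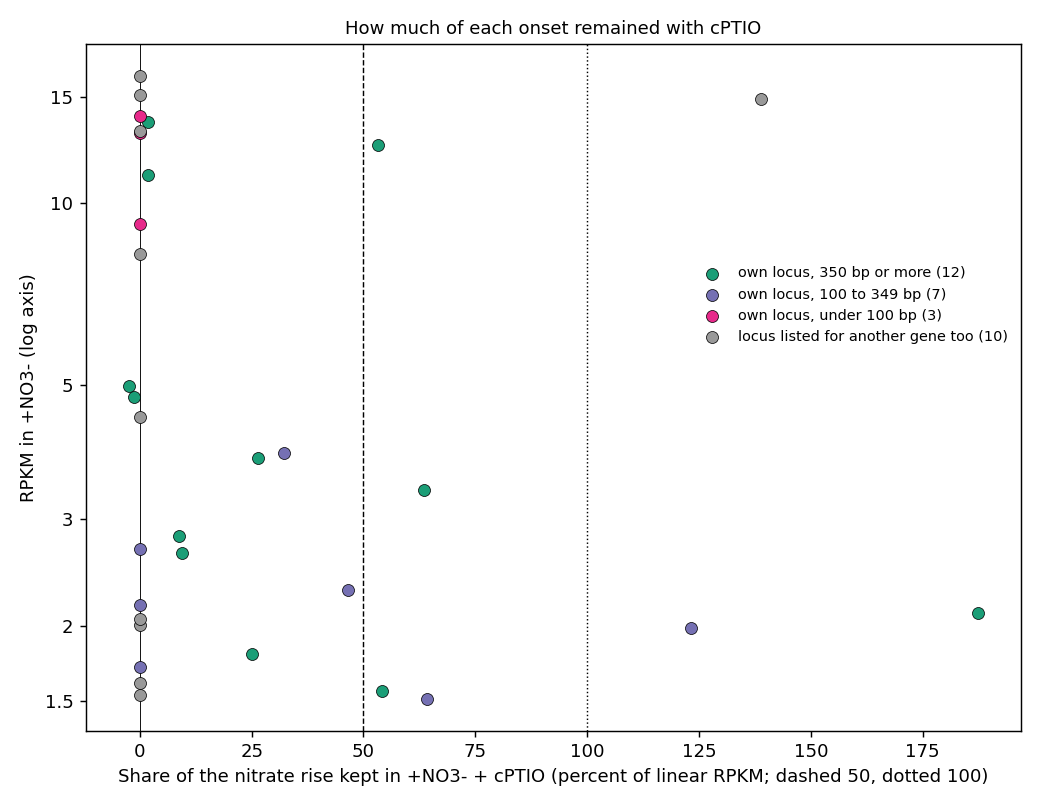
Share of the nitrate rise kept in +NO3- + cPTIO (horizontal axis, percent of linear RPKM) against the level in +NO3- (vertical axis, log scale) for the 32 genes, coloured by the kind of locus. The shared loci and those under 100 bp stack at 0 with the exception of 1 gene at 139%, whereas the 12 genes with an own locus of 350 bp or more spread from −2.51% to 187%.

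The 12 genes with an own locus of 350 bp or more kept between −2.51% and 187% of the rise with cPTIO, with quartiles of 1.92% and 53.4%, and 1 of them lay above 63.4%. The highest of these in +NO3- was Zm00001d037894 (chromosome 6, 141324494 to 141325549), with an RPKM of 0.257 in +NO3- + cPTIO and 13.6 in +NO3-, listed at 0 in −N. It stood 53.0-fold lower with cPTIO than with nitrate alone and kept 1.89% of its rise. Zm00001d048644 (chromosome 4, 2546674 to 2549655) had 0.298 in +NO3- + cPTIO, 11.1 in +NO3- and 0.0839 in −N. Its ratio of +NO3- to −N, 133-fold, was the largest of the members above 0 in −N, and its level with cPTIO was 3.55 times that in −N while 1.93% of the rise was left. Both genes were thus far lower with cPTIO than with nitrate alone, although not down to the level of −N.

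Zm00001d043709 and Zm00001d037985 are the members of this set that were silent again, and both fell below −N with cPTIO. Zm00001d043709 (chromosome 3, 207985776 to 207987092) is listed at 0 in +NO3- + cPTIO, with 4.99 in +NO3- and 0.122 in −N. Zm00001d037985 (chromosome 6, 144391966 to 144392983) had 0.0279 in +NO3- + cPTIO, 4.78 in +NO3- and 0.0838 in −N, a level 172-fold lower with cPTIO than with nitrate alone. No other member lay below its −N value. The difference from −N is small in absolute terms, 0.122 RPKM or less.

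At the other end, Zm00001d045843 kept a large part of a strong onset. This gene (chromosome 9, 43305858 to 43308309) had 6.69 in +NO3- + cPTIO, 12.5 in +NO3- and 0.124 in −N, which is 100.5-fold for nitrate over −N and 53.9-fold for nitrate with cPTIO over −N. Zm00001d026542 (chromosome 10, 147942411 to 147945498) followed at a lower level, with 2.16 in +NO3- + cPTIO, 3.35 in +NO3- and 0.0982 in −N, so that 63.4% of its rise was kept. Zm00001d004906 (chromosome 2, 147926729 to 147928365) had 0.904, 1.56 and 0.135 in the same order and kept 54.1%. For these genes the onset remained in the presence of the scavenger, at a reduced level.

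Zm00001d006524 (chromosome 2, 210495251 to 210495863) was the only gene of this set that stood higher with cPTIO than with nitrate alone, with 3.76 in +NO3- + cPTIO, 2.10 in +NO3- and 0.193 in −N. It is also the member nearest to both the limit on −N and the limit of 2 times in the rule, and its rise under cPTIO was 187% of that with nitrate alone.

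The other 4 genes with an own locus of 350 bp or more were partly kept. Zm00001d047436 (chromosome 9) had 1.04 in +NO3- + cPTIO, 3.79 in +NO3- and 0.0530 in −N, and kept 26.3% of the rise. Zm00001d048660 (chromosome 4) had 0.487, 1.80 and 0.0486 and kept 25.1%. Zm00001d007379 (chromosome 2) and Zm00001d010586 (chromosome 8) were lower with cPTIO, and both kept under 10% of the rise. Zm00001d007379 had 0.383 in +NO3- + cPTIO, 2.81 in +NO3- and 0.151 in −N, with 8.71% kept. Zm00001d010586 had 0.328, 2.64 and 0.0884 in that order, with 9.39% kept. All 12 genes of this set but Zm00001d037894 were above 0 in −N.

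The 7 genes with an own locus of 100 bp to under 350 bp rest on a small share of the reads. An RPKM times the locus length in kilobases is the largest library share that the value can stand for, in reads scaled to library size (RPM), and this upper limit lay between 0.258 and 1.11 RPM in +NO3- for these 7 genes, against 1.06 to 33.2 for the 12 genes above. Zm00001d001436 (chromosome 6, 288 bp) had 1.32 in +NO3- + cPTIO, 3.86 in +NO3- and 0.111 in −N and kept 32.3% of its rise. Zm00001d011079 (chromosome 8, 223 bp) had 1.07 in +NO3- + cPTIO and 2.29 in +NO3- and is listed at 0 in −N, with 46.6% kept. Zm00001d008028 (chromosome 8, 217 bp), with 0.970 in +NO3- + cPTIO, 1.51 in +NO3- and 0 in −N, kept 64.3%.

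The other 4 genes of this set were 1 that lost nothing of its rise and 3 that lost all of it. Zm00001d038913 (chromosome 6, 298 bp) stood higher with cPTIO, with 2.40 in +NO3- + cPTIO, 1.98 in +NO3- and 0.186 in −N. Zm00001d044078 (chromosome 3, 226 bp), Zm00001d030610 (chromosome 1, 329 bp) and Zm00001d012443 (chromosome 8, 151 bp) are listed at 0 in both +NO3- + cPTIO and −N, with 2.67, 2.16 and 1.71 in +NO3-. Groups in which a gene is listed at 0 give no ratio, and a listed 0 is not evidence that no transcript was present.

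The 3 genes with the shortest loci had high RPKM on a very small share of the reads. Zm00001d009507 (chromosome 8, 68045881 to 68045954) had 13.9 in +NO3-, Zm00001d033332 (chromosome 1, 259309882 to 259309954) had 13.1, and Zm00001d046080 (chromosome 9, 61948634 to 61948717) had 9.23, and all are listed at 0 in +NO3- + cPTIO and in −N. Their values stand for at most 1.03, 0.954 and 0.775 RPM in +NO3-. The loci of Zm00001d009507 and Zm00001d033332, at 74 and 73 bp, are shorter than the single-end reads of the study, so an untrimmed read cannot lie within them. The table holds 1590 Zm00001d genes with an own locus of under 100 bp, and these were the only 3 of the 1590 with a value above 0 in any group, and they make up 0.0156% of the 19263 genes. In +NO3- + cPTIO and in −N, 0 of the 1590 were above 0.

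The 10 genes with a shared interval included 5 of the 11 members with an RPKM of at least 5 in +NO3-. All 10 are listed at 0 in −N, and 9 are listed at 0 with cPTIO. In 8 of the 10 pairs, the other gene of the interval had an RPKM of at least 1.5 in −N, and in 8 of the 9 pairs in which it was expressed, its level in +NO3- was within 2-fold of that in −N. The ratio of +NO3- to −N of these other genes ran from 0.435 to 1.07, and that of +NO3- + cPTIO to +NO3- from 0.798 to 1.58. How the reads of an interval were divided between its genes is not recorded in the table, so the level of each gene of a pair is uncertain to that extent. Summed over both genes, the RPKM in +NO3- was 0.847 to 3.89 times that in −N in the 9 pairs, and the second highest ratio was 2.18. The summed RPKM with cPTIO was 0.376 to 1.14 times that in +NO3-. In −N these sums were 0.571 or more, so the near silence holds for the member as listed and not for the pair. RPKM is scaled to the length of each gene, so such a sum is not a read count.

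Zm00001d018026 (chromosome 5, 212350401 to 212368255) was the highest of all members in +NO3-, at 16.3, and is listed at 0 in +NO3- + cPTIO and in −N. The other gene of its interval, Zm00001d018025, had 23.7 in +NO3- + cPTIO, 15.1 in +NO3- and 17.4 in −N. Zm00001d018658 (chromosome 7, 2056214 to 2074801) had 15.1 in +NO3- and 0 in the other groups, beside Zm00001d018657 with 18.7 in +NO3- + cPTIO, 11.9 in +NO3- and 12.4 in −N. In both pairs the other gene was lowest in the group in which the member appeared.

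Zm00001d004703 (chromosome 2, 132209574 to 132244262) followed the same pattern, with 13.2 in +NO3- and 0 elsewhere, beside Zm00001d004702 with 65.5, 44.4 and 49.5 in +NO3- + cPTIO, +NO3- and −N. Zm00001d029966 (chromosome 1, 96701517 to 96704228) had 8.24 in +NO3- only, and its companion Zm00001d029965 had 18.7 in +NO3- + cPTIO, 18.2 in +NO3- and 21.1 in −N. In these pairs, too, the companion was expressed in each group and lowest with nitrate alone. Zm00001d005141 (chromosome 2) had 4.43 in +NO3- only, beside 17.6, 17.2 and 16.4 for Zm00001d005140, the level of which differed little between the groups.

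Zm00001d003420, Zm00001d000778, Zm00001d023171 and Zm00001d005283 had between 1.53 and 2.05 in +NO3- and are listed at 0 in both other groups. The companion of Zm00001d003420, Zm00001d003419, was the only one over 2-fold lower in +NO3- than in −N, with 2.56 in +NO3- + cPTIO, 2.16 in +NO3- and 4.97 in −N. The companions of Zm00001d000778 and Zm00001d023171 stayed within 2-fold of −N in +NO3-. Zm00001d005284, the companion of Zm00001d005283, is listed at 0 in all 3 groups.

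Zm00001d039168 was the only member with a shared interval that was above 0 with cPTIO. This gene (chromosome 6, 171659499 to 171663327) had 20.6 in +NO3- + cPTIO and 14.9 in +NO3- and is listed at 0 in −N, so its onset was seen in both groups given nitrate and was 1.39-fold higher with cPTIO. The other gene of the interval, Zm00001d039167, had 11.4 in +NO3- + cPTIO, 14.3 in +NO3- and 13.6 in −N. With cPTIO this companion stood at 0.798 times its level in +NO3-, and it was thus lowest in the group in which Zm00001d039168 was highest.

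**Figure D4:**
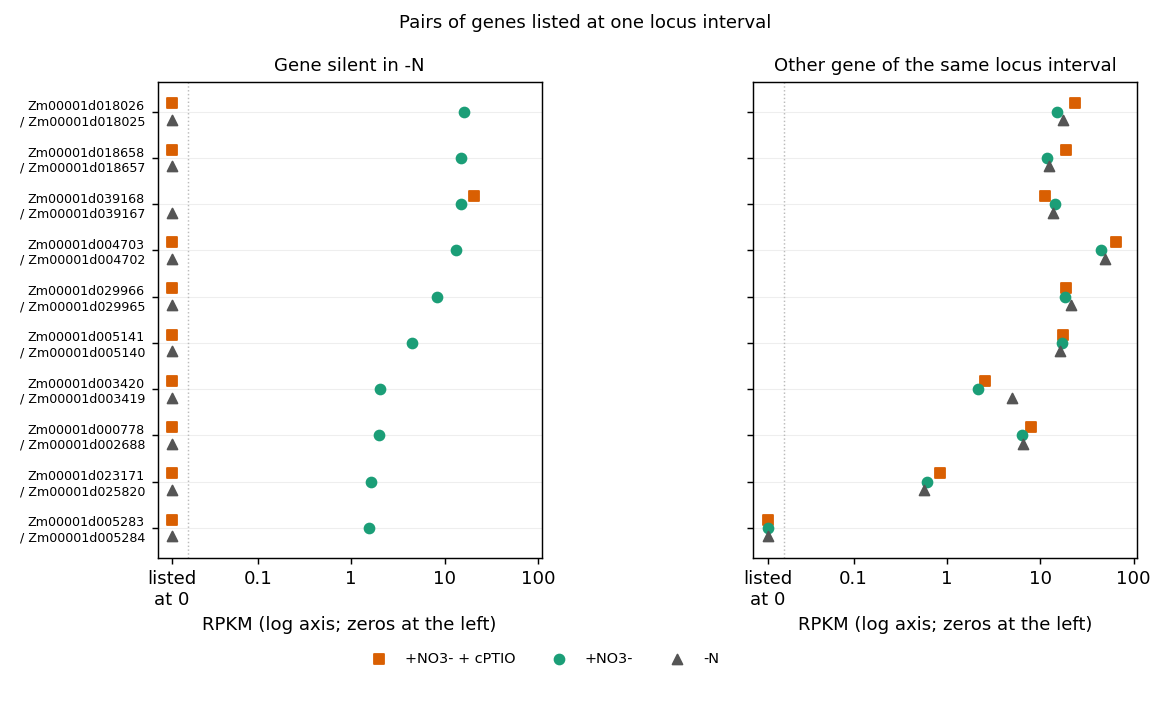
RPKM (log axis, values listed at 0 at the left edge) of the 10 members with a shared locus interval in the left panel and of the other gene of each interval in the right panel, in +NO3- + cPTIO (squares), +NO3- (circles) and −N (triangles). On the left, 9 of 10 genes are above 0 in +NO3- only, while on the right 9 of 10 genes are above 0 in all 3 groups, with levels in +NO3- between 0.435 and 1.07 times those in −N.

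Without the shared intervals, 22 members remain, of which 8 were silent again, 8 were partly kept and 6 kept at least 50% of the rise, with a median of 9.05% kept. Without the loci under 350 bp as well, 2, 6 and 4 of 12 genes fall into these classes. In the 13 members above 0 in −N, all with an own locus, the level in +NO3- was 10.7-fold to 133-fold that in −N, with a median of 34.7-fold. With cPTIO, 11 of these 13 genes stayed above their −N value, and the median rise kept was 26.3%. Of the 19 members listed at 0 in −N, 15 are listed at 0 with cPTIO as well.

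The order of the groups was also reversed, to see how many genes the same limits find the other way. Only 10 genes were below 0.2 in +NO3- with at least 1.5 in −N and at most 2 times the −N value with cPTIO. In 4 of these 10 the interval is shared, 6 are listed at 0 in +NO3-, and 5 have an own locus of 350 bp or more. The highest in −N, at 27.5, was Zm00001d028956, which has a shared interval and is listed at 0 in +NO3- + cPTIO and in +NO3-. Genes on in a single group, at 1.5 or more there and below 0.2 in both others, numbered 33 for +NO3- + cPTIO, 17 for +NO3- and 5 for −N, and the interval was shared in 5, 9 and 3 of them. The 17 for +NO3- are by definition the members called silent again. Genes silent in a single group and at 1.5 or more in both others numbered 37 for +NO3- + cPTIO, 1 for +NO3- and 6 for −N, and 5 of these last 6 are members. The values with cPTIO rest on fewer libraries than the others, and the part of this in the counts for single groups was not tested.

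The limits of the rule fall within a continuous range of values. Just inside the limit on −N lie Zm00001d006524 and Zm00001d038913, at 0.193 and 0.186, and just outside lie Zm00001d035753 and Zm00001d050577, at 0.205 and 0.214. At the minimum for +NO3-, Zm00001d008028 and Zm00001d005283 lie inside at 1.51 and 1.53, and Zm00001d020495 and Zm00001d001936 outside, both at 1.49. The cap with cPTIO removed only Zm00001d016401, with 23.2 in +NO3- + cPTIO, 2.91 in +NO3- and 0 in −N, which is 7.98 times the level with nitrate alone. Inside the cap, the nearest members were Zm00001d006524 at 1.79 times and Zm00001d039168 at 1.39 times.

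The members lay on each of the 10 chromosomes, with 8 on chromosome 2 and 5 each on chromosomes 6 and 8. None of them lay within 50 kb of another. The closest were Zm00001d048644 and Zm00001d048660, 297727 bp apart on chromosome 4, which kept 1.93% and 25.1% of the rise. Next came Zm00001d037894 and Zm00001d001436, 343201 bp apart on chromosome 6. Counted once for each member, 116 other genes lay within 50 kb without overlap, and 39 of them are listed at 0 in all groups. Of the 41 neighbours with an RPKM of at least 1 in +NO3-, 6 were over 2-fold higher in +NO3- than in −N, against 5.35% of all genes of the table with that minimum. These 6 lay next to 4 members, so the count rests on few places.

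Near Zm00001d004906, Zm00001d004905 at a distance of 20973 bp had 1.05 in +NO3- + cPTIO, 1.25 in +NO3- and 0.140 in −N, much like the 0.904, 1.56 and 0.135 of the member itself. It falls short of the minimum for +NO3-. Around Zm00001d038913, 3 neighbours were over 2-fold higher with nitrate. Zm00001d038911 had 3.78 in +NO3- + cPTIO, 8.21 in +NO3- and 1.19 in −N, Zm00001d038910 had 49.3, 27.3 and 12.9 in that order, and ENSRNA049477519 had 2.55 in +NO3- and is listed at 0 in both other groups. With cPTIO, the neighbours of this member thus went in different directions from +NO3-.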

How the data were processed

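RNA of primary root apices was sequenced in 9 libraries, 3 for each of 3 groups. Per the labels and the study's methods, the authors used CASAVA 1.8, Trimmomatic 0.33, TopHat2 2.0.13 on B73 RefGen_v4 and Cuffdiff of Cufflinks 2.2.1, with quartile normalization and correction of reads with several places. The RPKM values the authors deposited are 1 pooled value per gene and group. A low RPKM of a short gene rests on few reads, and reads of overlapping genes are divided by a model. The labels name a stranded kit, and the use of strand in counting is not given in the sources used here.

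The rule and the classes were applied with pandas 2.3.3 in Python 3.11.15. No test was made. A share of the rise is on linear RPKM, and 0.1 was added before log2 ratios. The rule for named genes took members with an RPKM of at least 5 in +NO3-, the 8 highest of each class, members within 50 kb of another (0 were found), those with a known function in the reference (0) and the 2 genes on each side of every limit. The other members, and neighbours or companions beside them, were named after their values were seen. Genes were called to share a locus when the table gives both the same interval. Gene names, promoters, protein classes and motifs were not used here, because no Zm00001d identifier could be matched. The members, limits and lists were chosen with earlier results of these data known, and the sets by locus length and sharing were formed after the values had been seen. On simulated data, the steps found all 200 planted genes among 5200, with 0 others and 200 in their class. The planted values were free of noise and set inside the limits, and the other genes were drawn from outside them. This outcome was therefore fixed by design, and it checks the code only, not the effect of few reads or shared loci.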

Additional observations from a re-analysis of the deposited data

Results flagged for a closer look

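Outside the Zm00001d series, 43 of 1776 genes met the same limits, a set that the results above leave out. Of the 43, 38 have ENSRNA identifiers, 41 are listed at 0 in −N and 30 were below 0.2 in +NO3- + cPTIO. The share below 0.2 with cPTIO was not determined for the other genes outside the series. Of the 43, 8 have a locus of under 100 bp, and others have an interval that is also listed for another gene. The part of locus length and sharing in the low levels with cPTIO was not tested. Their RPKM in +NO3- ran from 1.70 to 59.6, with a median of 7.06. ENSRNA049458448 on chromosome 5, with an interval of 102 bp of its own, had 64.7 in +NO3- + cPTIO and 58.5 in +NO3- and is listed at 0 in −N. No replicate value stands behind these levels.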

How the results depend on the processing

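No paired analysis was possible because the table holds 1 pooled value per group, and for the same reason no replicate could be left out in turn. Of 56 recomputed values, 28 stayed within the limits set for them (1.5 times for a count, 25 points for a share, 0.58 for a log2 ratio) and 28 moved. A change of sign was looked for in the median log2 ratio only, and 0 were found. The number of genes, 32 in the results, was 94 with −N below 0.5, 19 with −N listed at 0, 68 with +NO3- of at least 1, 17 with at least 3, and 12 without shared loci and loci under 350 bp. Genes silent again, 17, numbered 34 with +NO3- of at least 1, 10 with at least 3, 8 without shared loci, and 2 without short loci as well. Genes keeping at least 50%, 7, numbered 3 with −N below 0.1, 31 with −N below 0.5, 2 with −N listed at 0, 13 and 3 with +NO3- of at least 1 and 3, and 4 without shared and short loci. With at least 25% or 75% as kept there were 11 and 3. The median log2 ratio, −4.29, was −1.62 with −N below 0.5, −2.63 with +NO3- of at least 1, −5.50 with at least 3, −1.52 and −7.13 with a pseudocount of 1 and 0.01, −2.63 without shared loci and −2.18 without short loci as well. The 10 genes silent with nitrate became 30 with a limit of 0.5, 5 with −N of at least 3, 6 without shared loci and 5 without short ones as well. The median rise kept stayed between 0% and 19.2%. Scaling to a common upper quartile kept 31 of the 32 genes. Both alternatives on loci were chosen after seeing the data. Few reads behind low RPKM and the lack of values per library limit all of these counts.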
